A study of Drosophila melanogaster with 6 samples.

Results

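Transcript levels of 9 genes that shape, move, check and renew mitochondria were examined in muscle-enriched lysates of *Drosophila melanogaster* larvae in which the BMP effector Mad was knocked down. The genes were chosen by symbol, as Opa1, Marf, Drp1, Fis1, Miro, Pink1, park, TFAM and srl, and all 9 were found among the 17807 genes of the deposited table. The libraries were 3 Mad knockdown samples of genotype Dmef2-Gal4>UAS-madRNAi, and they were set against 3 control knockdown samples of genotype Dmef2-Gal4>UAS-mCherryRNAi. Both groups therefore carried the same Gal4 driver, which is active in muscle, and an RNAi transgene. In the controls the hairpin is directed at mCherry, a fluorescent protein with no fly counterpart. Larvae were taken at the wandering stage of the last instar, and a library stands for 6 to 10 pooled larvae and not for 1 animal. BMP stands for bone morphogenetic protein, and Mad is the Smad protein that acts on its target genes in the nucleus once the receptors have been activated. The comparison asks how transcripts of these lysates, which also hold tissues other than muscle, differ when Mad is reduced.

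Mitochondria form a network that is joined by membrane-bound GTPases and cut by a dynamin-related GTPase recruited from the cytosol. Damaged parts of the network are marked by a kinase and a ubiquitin ligase and can be removed, and new mitochondrial material depends on nuclear coactivators and on proteins that package and copy mitochondrial DNA (mtDNA). Flight muscle of Pink1 and park mutant flies is known for swollen, degenerating mitochondria, a defect that changes in the dosage of the fusion and fission genes modify, so these genes are often read together in fly muscle.

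Levels are the authors' normalized counts, which are read counts divided by 1 size factor per library. Changes are differences in log2(normalized count + 1), Mad knockdown minus control knockdown, from limma fitted to the 10348 genes with at least 10 normalized counts in at least 3 libraries. All 9 genes passed that filter. The total of whole reads recovered from the table ran from 109301864 to 127220949 in Mad knockdown libraries and from 96639921 to 124490149 in control libraries. The targeted gene Mad averaged 5015 ± 648 normalized counts in Mad knockdown and 7400 ± 344 in control libraries (SD, n = 3 each), a log2 fold change of -0.57 (SE 0.102) with a limma Benjamini-Hochberg adjusted p of 0.0440. By exact permutation (two-sided) its p was 0.1, and 3 libraries against 3 allow no smaller one. The call of Mad was lost in edgeR (adjusted p 0.0516), with a replicate block (0.0787), in limma without a trend (0.0981), and in the fits without any 1 library other than Mad knockdown replicate 2, where the adjusted p ran up to 0.143 (without control replicate 2).

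None of the 9 genes was called as changed after Mad knockdown. limma with a Benjamini-Hochberg adjusted p under 0.05 called 0 of the 9, where 2.59% of all tested genes were called. At an unadjusted p under 0.05 it picked 1 of the 9, Opa1, against 19.0% of all tested genes. On the recovered reads edgeR called 0 of 9, against 2.44% of all genes, and DESeq2 called 0 of 9, against 9.69%. Opa1 was again the gene with an unadjusted p under 0.05, as were 19.2% of all genes in edgeR and 20.0% in DESeq2. Its unadjusted p was under 0.05 in 10 of the 19 alternative fits and above it in 9, among them quantile and 75th percentile scaling, limma without a trend and the fit without control replicate 2. In that last fit Drp1, at 0.0461, was the gene under 0.05. The groups did not overlap for 2 of the 9 genes, Opa1 and park, against 24.6% of all tested genes. The fitted changes ran from -0.16 for park to 0.14 for Drp1, with 6 genes lower and 3 higher and a median of -0.046. The median over all tested genes was 0.0054, and 51.1% of them were higher. The 95% intervals of the 9 genes stayed between 75.1% and 126% of the control level, so larger changes lay outside every interval. These intervals include small changes in either direction for 8 of the 9 genes, and they do not show that the levels were equal.

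**Figure D1:**
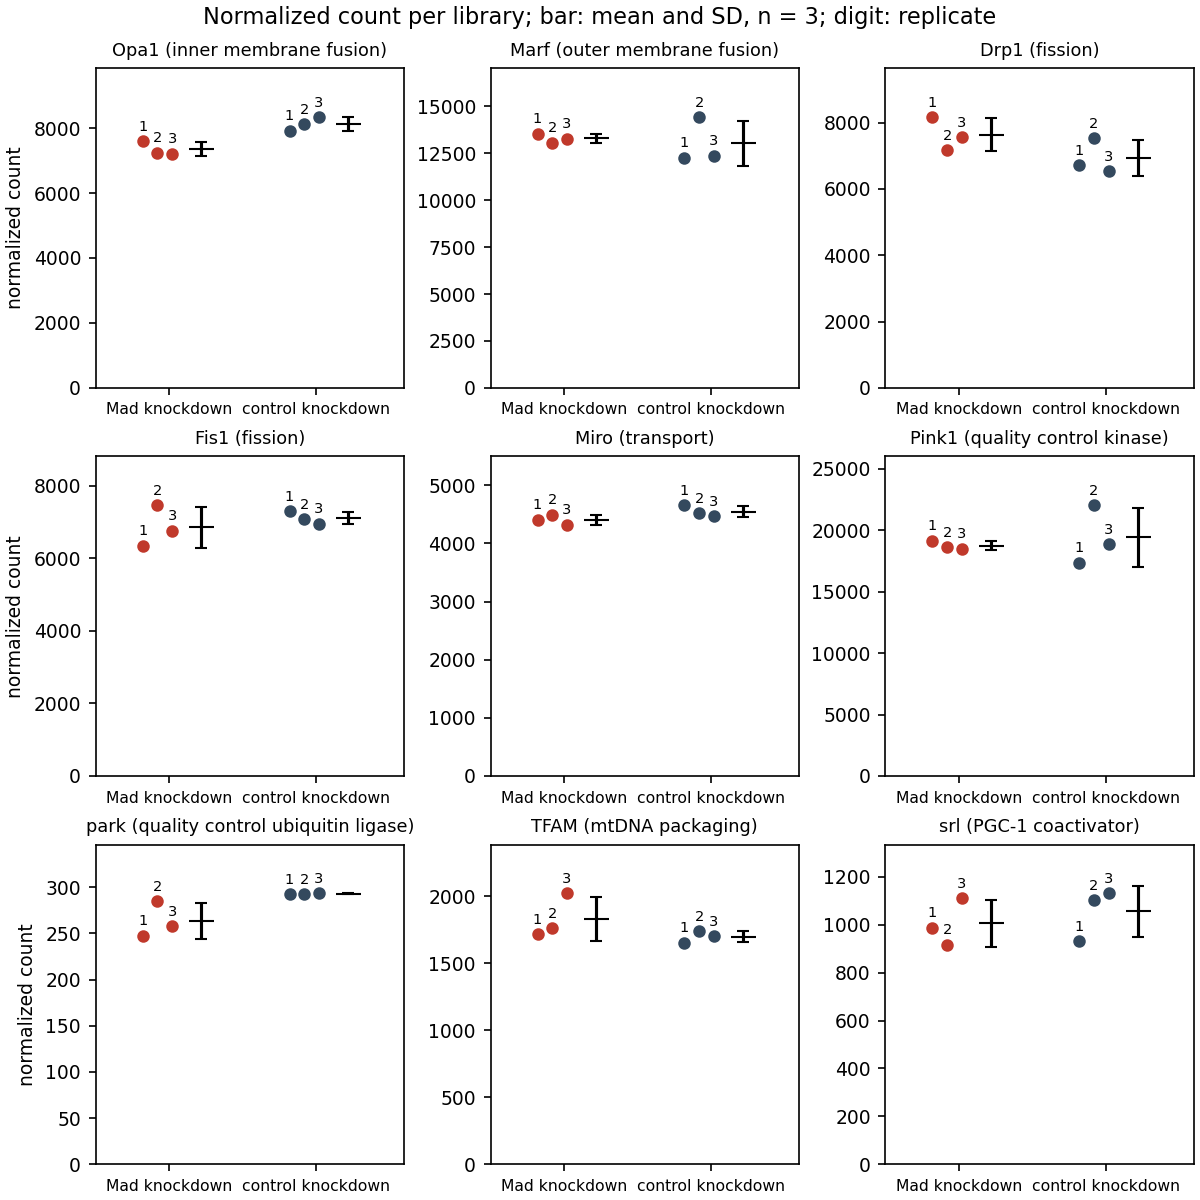
Normalized count of each of the 9 genes in the 3 Mad knockdown libraries (red, left) and the 3 control libraries (dark, right), with the replicate number above each point and the mean and SD (n = 3) beside them; every axis starts at 0. The groups lie close together in all 9 panels. They do not overlap for Opa1 (7213 to 7593 against 7924 to 8340) and for park (248 to 285 against 292 to 294). For park the gap between the groups is below the counting error of a single library.

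**Figure D2:**
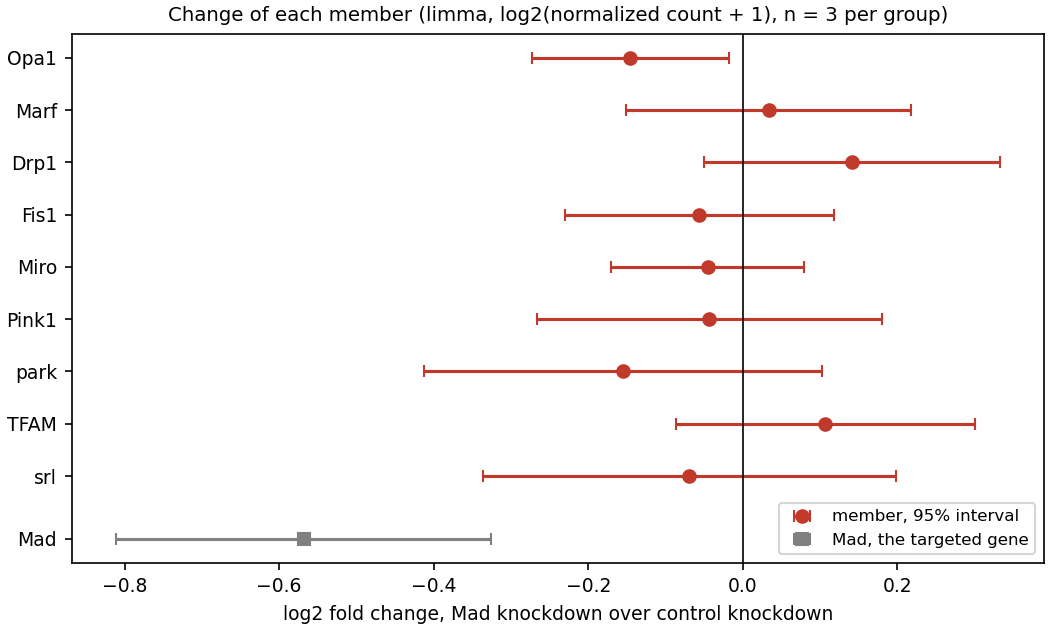
Log2 fold change of Mad knockdown over control knockdown for each gene, with its 95% interval from limma (n = 3 per group), and Mad itself for scale. The interval of Opa1 ends at -0.018, the intervals of the other 8 genes span 0, and that of Mad runs from -0.81 to -0.33.

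The fusion genes were examined first. Opa1 encodes the dynamin-like GTPase that fuses the inner membrane and shapes the cristae, and it lies on chromosome 2R (FBgn0261276, minus strand, 14230611 to 14235449 in dm6 coordinates, as are all positions here, from the Ensembl annotation). All 9 genes are annotated as protein-coding. Its normalized counts were 7593, 7246 and 7213 in Mad knockdown replicates 1 to 3, against 7924, 8127 and 8340 in control replicates 1 to 3. All 3 Mad knockdown libraries lay below all 3 controls. Mean levels were 7350 ± 210.4 in Mad knockdown and 8130.4 ± 208 in controls (SD, n = 3 each), which is 90.4% of control. The log2 fold change was -0.15 (SE 0.0535, 95% interval -0.27 to -0.018) with an unadjusted p of 0.0311 and an adjusted p of 0.214 in limma. In the 19 alternative fits Opa1 stayed lower, from -0.17 to -0.13, and without overlap leaving out 1 library could not reverse that. Its unadjusted p in these fits lay between 0.0305 and 0.102, and its adjusted p between 0.1997 and 0.447.

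Marf is the fly mitofusin of somatic tissue, the GTPase that joins outer membranes (FBgn0029870, chromosome X, plus strand, 6365949 to 6370924). Mad knockdown libraries held 13539, 13065 and 13281 normalized counts, and control libraries 12257, 14438 and 12384. The Mad knockdown values sat inside the range of the controls, whose replicate 2 was the highest of the 6. Its fitted change was 0.033 (95% interval -0.15 to 0.22, limma adjusted p 0.868). Its sign changed to -0.0085 without control replicate 1 and to -0.0011 without control replicate 3. Of its exon length, 9.59% is shared with the antisense noncoding gene lncRNA:CR44816, which held 12.1 to 13.6 normalized counts in Mad knockdown and 15.6 to 18.3 in controls.

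The fission genes gave no call either. Drp1 encodes the dynamin-related GTPase that constricts and cuts mitochondria (FBgn0026479, chromosome 2L, minus strand, 2581281 to 2585430). It had 8166, 7168 and 7565 normalized counts in Mad knockdown replicates, against 6713, 7532 and 6534 in controls. Control replicate 2 reached into the range of the Mad knockdown libraries, so the groups overlapped. Arpc5 on the other strand covers 4.99% of Drp1's exon length. At 0.14 (SE 0.0801, 95% interval -0.050 to 0.33, limma adjusted p 0.413) the fitted change of Drp1 was the most positive of the 9. It was positive in all 19 alternative fits, from 0.091 to 0.203. Some of these fits, such as limma without a trend and the replicate block, leave the change as it is by construction. Fis1 encodes a small tail-anchored protein of the outer membrane, known in yeast as part of the site to which the fission GTPase is recruited (FBgn0039969, chromosome 2R, minus strand, 5603587 to 5604834). Its values were 6342, 7463 and 6758 in Mad knockdown, against 7298, 7082 and 6955 in controls. The Mad knockdown range enclosed the control range, and the log2 fold change was -0.056 (95% interval -0.23 to 0.12, limma adjusted p 0.74). It was -0.0018 without Mad knockdown replicate 1 and -0.12 without replicate 2 of that group.

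Miro encodes the outer-membrane GTPase that couples mitochondria to the kinesin motor through the adaptor milt (FBgn0039140, chromosome 3R, minus strand, 24034362 to 24038847). It was the steadiest of the 9 genes, with 4408, 4492 and 4320 normalized counts in Mad knockdown, against 4658, 4522 and 4465 in controls. The groups overlapped only where Mad knockdown replicate 2 exceeded control replicate 3. At -0.046 (95% interval -0.17 to 0.079, limma adjusted p 0.701) its change had the narrowest interval of the 9. Exons of spas on the other strand cover 16.7% of its exon length, and spas held 3290 to 3726 normalized counts in Mad knockdown and 3492 to 3711 in controls. Whether the counting used strand is not given in the sources used here, so reads of genes that overlap on opposite strands may have been shared.

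Pink1 encodes the kinase that builds up on damaged mitochondria and activates park, the fly Parkin, a ubiquitin ligase. Pink1 (FBgn0029891, chromosome X, plus strand, 6683798 to 6687302) had 19147, 18641 and 18491 normalized counts in Mad knockdown replicates, against 17349, 22044 and 18875 in controls. The Mad knockdown values had a coefficient of variation of 1.83% and lay inside the control range, where the coefficient was 12.3%. The control spread rests on replicate 2, which was 122% of the mean of the other 2 controls. Its change was -0.043 (95% interval -0.27 to 0.18, limma adjusted p 0.857), and without control replicate 2 it was 0.052. Exons of CG44303 on the other strand cover 10.5% of its exon length, at 20.1 to 46.7 normalized counts in Mad knockdown and 6.1 to 20.1 in controls.

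park had the lowest level of the 9 per kilobase of exon (FBgn0041100, chromosome 3L, minus strand, 21194754 to 21196853). Its normalized counts were 248, 285 and 258 in Mad knockdown, against 293, 292 and 294 in controls. The groups did not overlap, and Mad knockdown averaged 89.9% of control. The control values differed by a coefficient of variation of 0.211%, which is far below the counting error of 5.57% to 6.45% that 240 to 322 reads carry. That close agreement therefore does not measure the spread between control samples. Mad knockdown replicate 2, at 285, and control replicate 2, at 292, also lay closer together than this counting error. park's log2 fold change of -0.16 had an SE of 0.108 and a 95% interval of -0.41 to 0.10 (limma adjusted p 0.506). It was -0.069 after quantile normalization and -0.092 after removal of the length and level trend, and less negative than that of Opa1 in both. Genes on the opposite strand, CG34261 and asRNA:CR45951, cover 65.1% of park's exon length. CG34261 held 24.2 to 51.7 normalized counts in Mad knockdown and 23.9 to 36.5 in controls. asRNA:CR45951 held at most 3.02 in Mad knockdown and 0.912 in controls. Reads over the shared sequence may have been added to park or left out of its count. The low level of park is therefore uncertain in either direction.

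TFAM and srl stand for the renewal of mitochondria. TFAM encodes the protein that packages mtDNA (FBgn0038805, chromosome 3R, minus strand, 20575245 to 20577010). It had 1718, 1759 and 2021 normalized counts in Mad knockdown, against 1653, 1739 and 1700.0 in controls. Mad knockdown replicate 3 stood above the other 5 libraries, which all lay between 1653 and 1759. Its log2 fold change was 0.11 (95% interval -0.087 to 0.301, limma adjusted p 0.544), and it was 0.035 without Mad knockdown replicate 3. srl, known as Spargel, is the fly member of the PGC-1 family of coactivators that raise the expression of mitochondrial genes (FBgn0037248, chromosome 3R, minus strand, 4422483 to 4429335). It had 988, 917 and 1112 normalized counts in Mad knockdown, against 932, 1103 and 1131 in controls. The groups overlapped through most of their range, and the log2 fold change was -0.069 (95% interval -0.34 to 0.199, limma adjusted p 0.8004). Without 1 library it ran from -0.16 (control replicate 1 left out) to -0.0046 (Mad knockdown replicate 2 left out). Neither gene shares exon sequence with another annotated gene.

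Levels of different genes were compared per kilobase of exon. Fis1 led with a mean of 7525 normalized counts per kilobase over the 6 libraries. Pink1 followed at 5894, then Marf at 3639, Drp1 at 2538 and Opa1 at 1951. TFAM at 1421 and Miro at 1181 came next, and srl at 222 and park at 165 were lowest. No neighbours in this order overlapped in their range over the 6 libraries, and the order was the same per kilobase of the longest transcript. As a ratio, the closest ranges were those of Fis1, which began at 6834, and Pink1, which ended at 6806 in control replicate 2. The kinase gene Pink1 stood at 5792 per kilobase in Mad knockdown and 5997 in controls, whereas park stood at 156 in Mad knockdown and 174 in controls. The value of Fis1 depends on the length used, and was 9919 per kilobase of its longest transcript. Genes on the opposite strand cover 65.1% of park's exon length and 16.7% of Miro's, and the strand setting is not known. Neither the ranges over libraries nor the longest transcript tests how reads there were counted. The places of park and Miro in the order, and the distance of park from Pink1, are therefore uncertain.

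**Figure D3:**
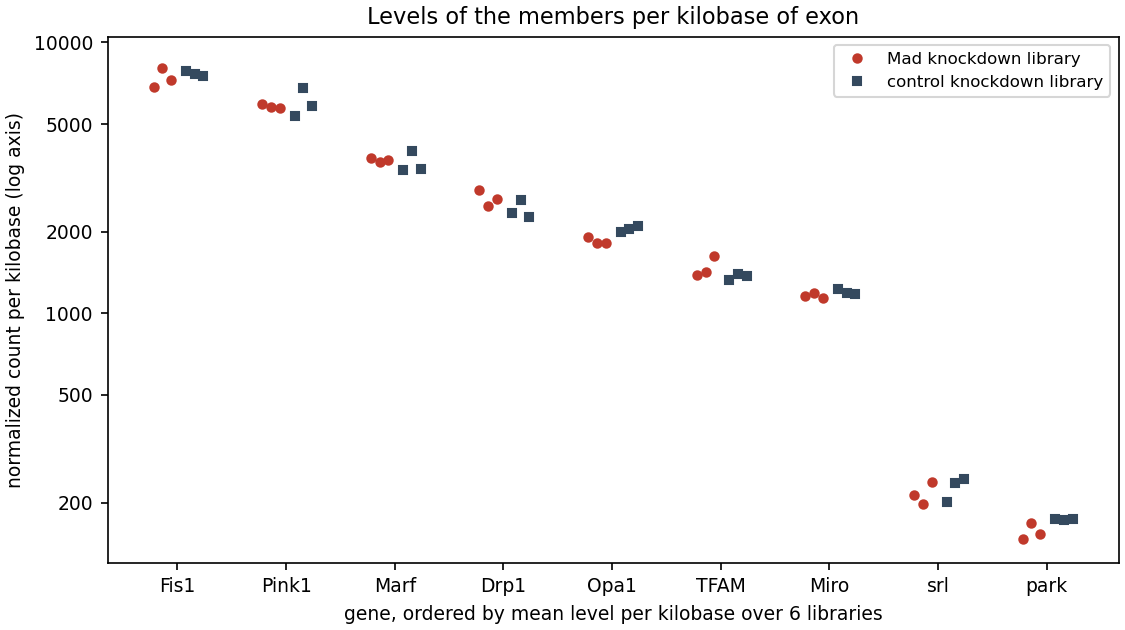
Normalized count per kilobase of exon (log axis) of the 9 genes in each Mad knockdown library (red circles) and control library (dark squares), ordered by their mean. Levels run from 7525 for Fis1 to 165 for park, and the range of no gene overlaps that of its neighbour. Exon sequence shared with genes on the opposite strand was not allowed for.

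The spread of the 9 genes among libraries of 1 group ranged from small to near the middle of all tested genes. Their residual SD within groups on the log2 scale ran from 0.030 for Miro to 0.15 for srl, with a median of 0.093, and all 9 lay below the median of 0.16 over all tested genes. A smaller residual SD was found in 1.31% of tested genes for Miro and in 3.09% for Opa1, but in 40.2% for Pink1 and 47.1% for srl. The absolute change of 8 of the 9 genes was below the median absolute change of 0.15 over all tested genes, and that of park was just above it at the authors' scaling. The tested genes include genes with lower counts than any of the 9, and these comparisons of spread and change were not matched for level. Whether the 9 genes varied or changed less than other genes of like level was not tested. No library was high or low for the whole group of genes. Among the controls, replicate 2 was highest for Marf, Drp1, Pink1 and TFAM, replicate 3 for Opa1, park and srl, and replicate 1 for Fis1 and Miro. Among the Mad knockdown libraries, replicate 1 was highest for Opa1, Marf, Drp1 and Pink1, replicate 2 for Fis1, Miro and park, and replicate 3 for TFAM and srl.

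Whether members of opposed or linked roles moved apart was tested with the log2 ratio of their normalized counts within each library, which does not depend on the scaling of the libraries. The ratio of Opa1 to Drp1, fusion over fission, was -0.11, 0.015 and -0.069 in Mad knockdown replicates, against 0.24, 0.11 and 0.35 in controls. The groups did not overlap, and the difference between the mean log2 ratios, Mad knockdown minus control, was -0.29. The ratio of Marf to Drp1 was 0.73, 0.87 and 0.81 in Mad knockdown, against 0.87, 0.94 and 0.92 in controls. Mad knockdown replicate 2, at 0.866, came just below control replicate 1, at 0.869, and the difference between the means was -0.11. For both ratios the exact two-sided permutation p was 0.1, the smallest that 3 libraries against 3 allow. It was 0.2 after Benjamini-Hochberg adjustment over the 4 ratios computed. Both have Drp1 as denominator, so they are not independent of each other. Groups did not overlap for 24.6% of all tested genes taken singly, and the share over ratios of other genes was not computed. Pink1 over park averaged 6.16 ± 0.12 in Mad knockdown and 6.04 ± 0.18 in controls (SD, n = 3 each, exact permutation p = 0.4). TFAM over srl averaged 0.87 ± 0.071 in Mad knockdown and 0.69 ± 0.12 in controls (SD, n = 3 each, exact permutation p = 0.2).

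**Figure D4:**
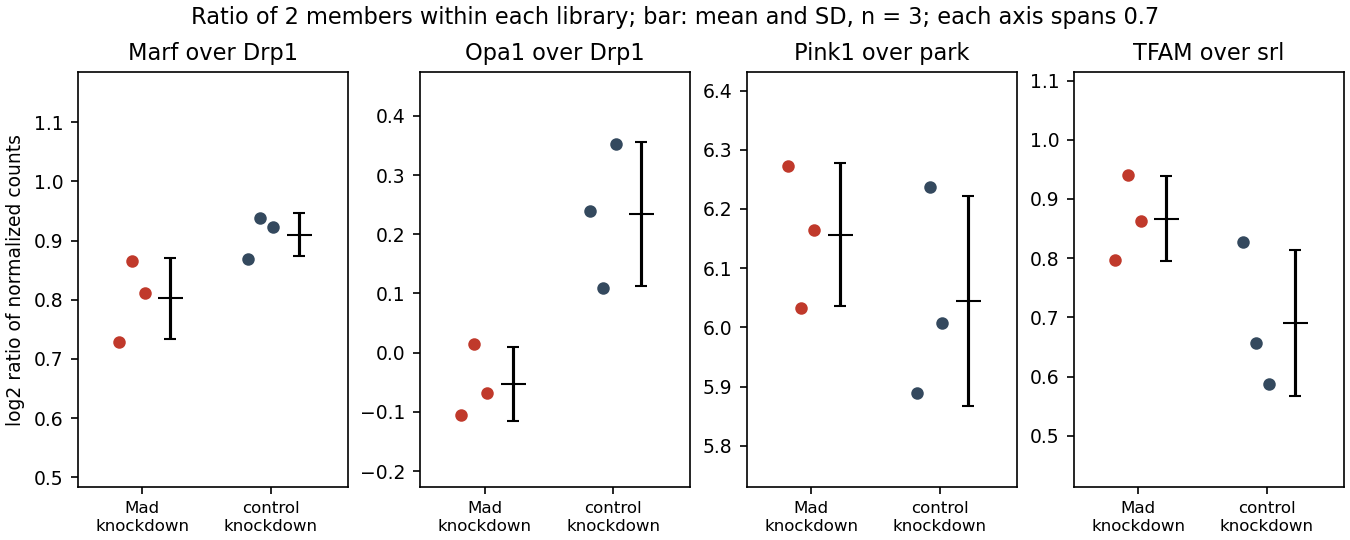
Log2 ratio of the normalized counts of a pair of genes within each Mad knockdown library (red, left) and control library (dark, right), with mean and SD (n = 3); the axes have different centres and the same span. The groups are apart for Marf over Drp1 and for Opa1 over Drp1, where the mean is -0.053 in Mad knockdown and 0.23 in controls, and they overlap in the other panels.

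Genes that work with the 9 were followed in 5 lists, of which 97 genes were tested. limma called 0 of the 97 after adjustment, edgeR called 0 and DESeq2 called 8, beside the 2.59%, 2.44% and 9.69% of all genes that these tools called. At an unadjusted p under 0.05 limma picked 15 of them, 5 higher and 10 lower, which is 15 in 97 against 19.0% of all tested genes. Of 18 tested regulators of fusion, fission, cristae and transport, 11 were higher and 7 lower, with a median of 0.026 that was 0.045 after 75th percentile scaling and 0.042 after removal of the length and level trend. The most negative was the prohibitin gene Phb1, whose product forms a scaffold in the inner membrane and guards the processing of OPA1 in mammals. It had 4328, 3730 and 4295 normalized counts in Mad knockdown, against 4560, 5013 and 5522 in controls (log2 fold change -0.29, limma adjusted p 0.176). The most positive was fzo, the mitofusin of spermatids, at 80.6 to 117 normalized counts in Mad knockdown and 63.8 to 86.6 in controls (0.44, limma adjusted p 0.35).

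Of 28 genes of mitophagy and mitochondrial protein quality, 21 were higher and 7 lower, with a median of 0.059. Over all tested genes 51.1% were higher, and the list was not tested as a set. dj-1beta, a fly homologue of the human DJ-1 gene of redox defence, was the most negative of this list. Its normalized counts were 3561, 3002 and 4125 in Mad knockdown, against 4372, 4676 and 4987 in controls, with no overlap (log2 fold change -0.403, SE 0.121, limma adjusted p 0.146). Its paralogue DJ-1alpha was the most positive, at 21.5, 41.7 and 50.3 in Mad knockdown, against 52.5, 14.6 and 22.8 in controls (0.44, SE 0.55, limma adjusted p 0.728). At these low counts the SE exceeded the change. DESeq2 called dj-1beta, at -0.39 with an adjusted p of 0.0458.

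Of 22 genes of biogenesis and mtDNA maintenance, 9 were higher and 13 lower, with a median of -0.026. The stress-responsive transcription factor gene cnc, the fly Nrf2, was the most positive, at 91083, 83482 and 78128 normalized counts in Mad knockdown, against 67443, 73121 and 64073 in controls. All 3 Mad knockdown libraries were above the controls (log2 fold change 0.304, SE 0.0911), the limma adjusted p was 0.146, and DESeq2 called it at 0.0253. The growth regulator gene Myc was the most negative, at 2094, 2055 and 2369 in Mad knockdown, against 2317, 2773 and 2698 in controls (-0.26, limma adjusted p 0.219). Of 14 genes of protein import, 6 were higher and 8 lower, with a median of -0.0070 and changes from -0.16 for Roe1, a nucleotide exchange factor of the matrix chaperone, to 0.15 for the import receptor gene Tom20. The limma adjusted p-values of these import genes were all at least 0.327.

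Of 15 mitochondrially encoded genes, whose template TFAM packages, 13 were lower and 2 higher, where 51.1% of all tested genes were higher. Whether these genes moved independently of each other was not tested. Their median change was -0.15. That median was -0.039 after removal of a trend with gene length and level, -0.22 with Mad knockdown replicate 2 left out and -0.098 with replicate 3 of that group left out. The complex I subunit gene ND2 was the most negative, at 1877, 2023 and 1651 normalized counts in Mad knockdown, against 4300, 2592 and 2138 in controls (log2 fold change -0.64, SE 0.248, limma adjusted p 0.231). Control replicate 1 stood far above the other 2 controls. The ATP synthase subunit gene ATP6 was the most positive, at 298703, 335568 and 304880 in Mad knockdown, against 272869, 231023 and 221889 in controls, with no overlap (0.38, SE 0.123, limma adjusted p 0.173). DESeq2 called 6 genes of this list, ATP6 higher and ND2, ND6, COX3, lrRNA and srRNA lower, beside 9.69% of all genes. limma and edgeR called none of them, and their limma adjusted p-values ran from 0.113 for ND6 to 0.725 for lrRNA. Libraries were made from polyadenylated RNA, so levels of mitochondrial transcripts also depend on their tails, and reads of ATP6 can be shared with ATP8, whose reading frame overlaps it.

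**Figure D5:**
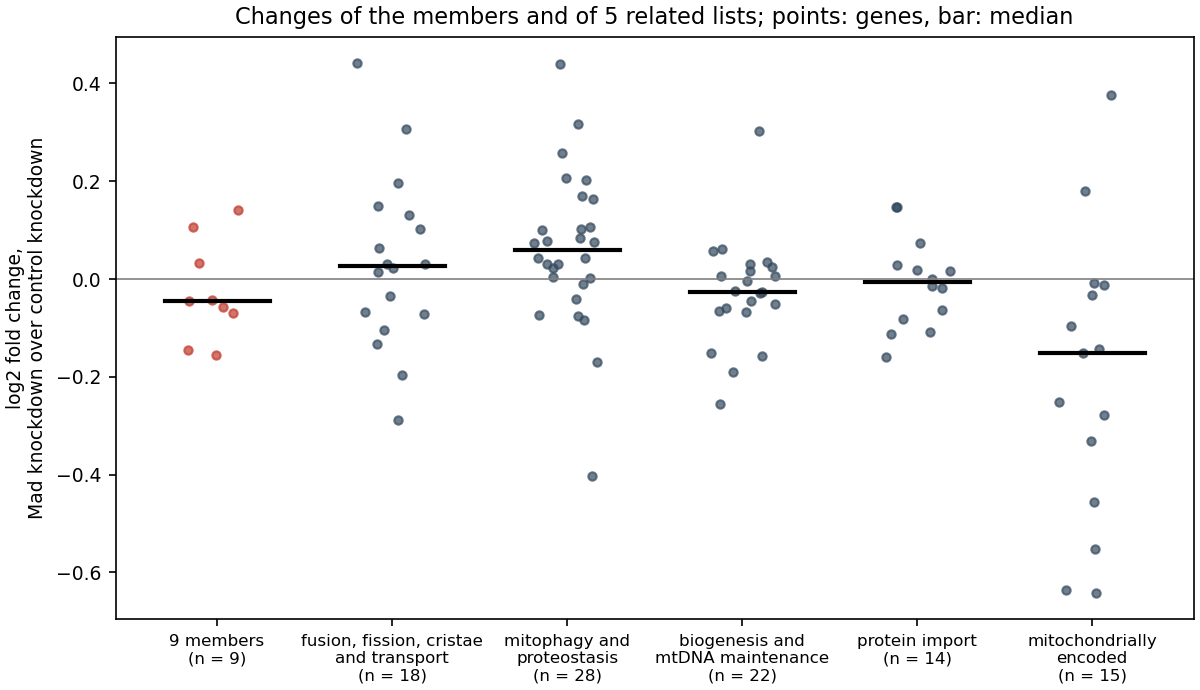
Log2 fold change of Mad knockdown over control knockdown for the 9 genes (red) and for the tested genes of 5 related lists (dark), with the median of each list as a bar. The medians of the 9 genes and of 4 lists lie between -0.046 and 0.059, and that of the mitochondrially encoded genes lies at -0.15.

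The gene with the smallest unadjusted p, Opa1, was used to look for genes with a like pattern. Likeness was the root-mean-square difference between centred log2 profiles over the 6 libraries, among 8775 other tested genes with a mean of at least 50. The median difference from Opa1 was 0.16. The 5 nearest genes were CG17597 at 0.017, CG42748 at 0.018, mIF3 at 0.018, Mettl3 at 0.019 and nito at 0.022. mIF3 is named for mitochondrial translation initiation factor 3, and Mettl3 encodes the catalytic subunit of the enzyme that writes m6A marks on RNA. CG17597 was at 1930, 1865 and 1884 normalized counts in Mad knockdown, against 2039, 2142 and 2163 in controls. The changes of these 5 genes ran from -0.16 to -0.10, and their limma adjusted p-values from 0.212 to 0.395. The profiles include the difference between the groups, so changes near that of Opa1 follow from how these genes were picked.

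The makeup of the lysates was read from markers. Summed levels of 9 muscle markers, among them the myosin heavy chain gene Mhc and the actin gene Act57B, were from 1138102 to 1713123 normalized counts in Mad knockdown libraries and from 2382041 to 3369525 in controls, with no overlap. 1 of the 9, Tm2, was called, beside 2.59% of all tested genes, and groups did not overlap for 24.6% of single genes. A sum mostly follows the most abundant genes of its list, so it does not show that each marker was lower. In bulk samples fewer cells of a type and less RNA per cell cannot be told apart. Haemocyte markers summed to 70530 to 77510.4 in Mad knockdown and 82446 to 113506 in controls, and salivary gland markers to 29.0 to 147 in Mad knockdown and 297 to 2573 in controls, both with no overlap. The sums of the groups overlapped for the other lists. Fat body markers summed to 21845 to 42288 in Mad knockdown and 26534 to 42024 in controls, and nervous system markers to 1225 to 1392 in Mad knockdown and 1262 to 1444 in controls. Epidermis and cuticle markers summed to 8696319 to 11220949 in Mad knockdown and 9240867 to 11191144 in controls, and tracheal markers to 43135 to 84633 in Mad knockdown and 75345 to 119407 in controls. Midgut markers summed to 76.6 to 4074 in Mad knockdown and 36.5 to 134 in controls, and testis markers to 86.6 to 137 in Mad knockdown and 92.1 to 126 in controls. No marker was at 0 in all 6 libraries, and the midgut marker Amy-p and the testis marker dj had at most 3 reads in any library. The part of these differences in the levels of the 9 genes was not tested.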

How the data were processed

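RNA-seq of 6 libraries was analysed from 1 deposited table of normalized gene counts, a signal that the authors made by dividing counts by 1 size factor per library. Per the submitters' processing notes the build was dm6; aligner, counter, annotation and strand setting are not given in the sources used here. In each deposited column 100% of values above 0 were whole multiples of 1 step (tolerance 0.001), whose inverse, from 0.82 to 1.1, equalled the median-of-ratios factor of DESeq2. The step of Mad knockdown replicate 3 is close to 1. Reads recovered in this way were used for edgeR and DESeq2.

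A gene was tested where 3 or more libraries held 10 or more normalized counts. Values were fitted as log2(value + 1) with limma 3.58.1 in R 4.3.3 (lmFit, eBayes with a trend, no covariate, two-sided), and p-values were adjusted by Benjamini-Hochberg over all 10348 tested genes. The steps were tested on simulated data. As alternatives, the pseudocount was set to 0.5 and 5, the filter was dropped or replaced by a minimum mean of 50, and the other settings were quantile, 75th percentile and TMM scaling, eBayes without a trend and robust, edgeR 4.0.16, DESeq2 1.42.0, a replicate block, removal of a length and level trend, and leaving out each library. Gene positions and exon lengths are from Ensembl 115 (BDGP6.54, dm6 coordinates); 97 identifiers were not in it. Replicates are pools of larvae, and nothing says whether they came from separate cultures, so p-values measure the spread between these samples.

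The 9 genes, the lists and the tests were chosen with earlier results of these data known. Genes named are the 9, Mad, the most positive, the most negative and any limma-called gene of each related list, and the 5 genes nearest to the member with the smallest p. Genes named for exon overlap, the DESeq2 calls and the markers were named after their values were seen. Of 110 written list names 104 were found and 97 were tested; markers were read as summed levels. The biogenesis list also holds Tfb1, a subunit of a general transcription factor that was listed in error and kept.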

Additional observations from a re-analysis of the deposited data

How the results depend on the processing

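In each of the 19 alternatives, of which 1 was edgeR, 1 was DESeq2 and the other 17 were limma fits, 0 of the 9 genes were called. Opa1, Drp1, Fis1, Miro, park, TFAM and srl kept their sign in each. The changed filters, limma without a trend, robust eBayes and the replicate block leave a fold change as it is by construction. The pseudocounts hardly altered it. For Opa1 and park, whose groups did not overlap, leaving out 1 library could not reverse the sign either. Sizes moved in other fits: Fis1 from -0.12 to -0.0018 and srl from -0.16 to -0.0046 without 1 library, and park to -0.069 after quantile normalization. Marf changed sign without control replicates 1 and 3 (range without 1 library -0.0085 to 0.11) and Pink1 without control replicate 2 (range -0.12 to 0.052). The related lists held 0 calls except under DESeq2, which called 8 (2 higher, 6 lower). The median of the fusion, fission, cristae and transport list was 0.045 after 75th percentile scaling. The medians of the biogenesis and import lists, near 0, took either sign (-0.036 to 0.020 and -0.028 to 0.043). The count of called genes over the whole table, 268, was 138 in limma without a trend, 1000 in DESeq2 and 117 with the replicate block, and from 43 to 193 without 1 library (110, 103 and 193 without Mad knockdown replicates 1, 2 and 3, and 106, 43 and 72 without control replicates 1, 2 and 3). The log2 fold change of Mad was -0.57 without a trend (adjusted p 0.0981), -0.55 in edgeR (0.0516) and -0.57 with the replicate block (0.0787), none of them past the threshold. Without 1 library it ran from -0.66 to -0.47, with adjusted p-values in limma from 0.0443 to 0.143. Fits without 1 library have fewer samples by construction; otherwise the cause was not tested. Deviations of same-numbered libraries had correlations of -0.14, -0.066 and 0.037, which gives no sign of pairing, and the replicate block called 0 of the 9 genes. The ratios of gene pairs kept their direction without each library, an alternative chosen after seeing the data. Opa1 to Drp1 ran from -0.35 to -0.23 and Marf to Drp1 from -0.14 to -0.071. The groups did not overlap for either ratio, so leaving out 1 library could not change the direction. Pink1 to park ran from 0.035 to 0.21 and TFAM to srl from 0.12 to 0.24. Depth limits park most, with 240 to 322 reads per library.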
